A study of Mus musculus with 37 samples.

Results

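Fully grown germinal vesicle (GV) oocytes of the CabZ mouse line were compared with and without deletion of Cabin1, in 8 RNA-seq libraries chosen from the 37 samples of the series by their genotype and stage. CabZ KO oocytes carried Cabin1 flox on both alleles and Zp3-Cre, a Cre recombinase driven in the growing oocyte, which removes exon 6. CabZ Het oocytes, the controls, carried the same Zp3-Cre and 1 floxed allele, so that 1 Cabin1 allele was deleted in the controls too and both groups had the Cre. All mice were on a C57BL/6 background, and females of both groups received PMSG, a gonadotrophin that makes follicles grow, 48 h before oocytes were isolated. Each group had 4 libraries. According to the methods each library was made from 10 pooled oocytes, while the sample records speak of individual cells, and no source says how many females stood behind a library. The p-values below therefore measure only the spread between libraries.

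CABIN1 is a subunit of the Hira complex, which together with HIRA and UBN1 loads the histone variant H3.3 onto DNA without replication. It was first known as a protein that binds and inhibits the phosphatase calcineurin and that represses the transcription factor MEF2. A fully grown GV oocyte is arrested in the first meiosis, has largely stopped transcribing, and lives on mRNAs stored during growth, so its RNA reflects both earlier synthesis and decay.

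The libraries held 9115866 to 10010809 reads on genes in CabZ KO and 10705846 to 12468932 in CabZ Het oocytes, so that every CabZ Het library was deeper than every CabZ KO library. Levels are given in FPKM, reads per kilobase of the whole gene span, introns included, scaled to the reads of the library. The oocyte markers Zp3, Gdf9 and Bmp15 led their list, whose summed level was 1400 to 2416 FPKM in CabZ Het and 1198 to 1780 FPKM in CabZ KO libraries. The granulosa and cumulus cell markers summed to 6.30 to 7.93 FPKM and 4.77 to 6.24 FPKM, and most of this came from Serpine2. In a principal component analysis the first component (46.3% of the variance) separated the genotypes. On the second (20.4%), CabZ KO replicates 1 and 2 lay at -11.9 and -19.9 and replicates 3 and 4 at 17.1 and 8.1, whereas the CabZ Het libraries lay between -2.0 and 5.3.

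Cabin1 (chr10:75646112-75764341, minus strand, GRCm38) was lower in every CabZ KO than in every CabZ Het library. It was represented by 149, 117, 209 and 162 reads in CabZ Het and by 57.0, 25.1, 14.1 and 13.9 reads in CabZ KO replicates 1 to 4. This was 0.119 ± 0.0312 FPKM (SD, n = 4) in CabZ Het and 0.0242 ± 0.0167 FPKM (SD, n = 4) in CabZ KO oocytes, a fall of 79.7% (p = 0.029 by a two-sided exact permutation test, the lowest value open to 4 against 4 libraries). CabZ KO replicate 1 kept the most. These reads cover the whole gene and not exon 6 alone, and so does the level in the controls, which have a deleted allele themselves.

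The gene next to Cabin1 fell as well. Ddt (chr10:75771230-75773414, minus strand) encodes D-dopachrome tautomerase, a relative of the cytokine MIF, and starts upstream of Cabin1 on the same strand. It had 34.5, 32.7, 29.8 and 29.2 FPKM in CabZ Het and 14, 8.53, 14.2 and 14.9 FPKM in CabZ KO libraries. The groups did not overlap, and the log2 fold change was -1.25 (SE 0.16, limma, adjusted p = 0.0011). Further along the same cluster, Gstt2, a glutathione transferase gene, was at 13.2 ± 1.26 FPKM (SD, n = 4) in CabZ Het and 21.2 ± 2.90 FPKM (SD, n = 4) in CabZ KO oocytes, higher by 0.63 on the log2 scale (SE 0.12, limma, adjusted p = 0.0076) and so below a fold of 2. Its relative Gstt4, below the minimum for testing, had 0.834 ± 0.185 FPKM (SD, n = 4) and 0.352 ± 0.0751 FPKM (SD, n = 4). Mif itself had 79.3 ± 14 FPKM (SD, n = 4) in CabZ Het and 78.1 ± 19.1 FPKM (SD, n = 4) in CabZ KO oocytes, with a log2 difference of -0.03 (SE 0.18, limma, adjusted p = 0.93). Genes on the far side of Ddt were thus higher, lower or little changed, and only Ddt passed the test at a fold of 2.

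Across the 6339 genes whose mean over the 8 libraries reached 1 FPKM, 131 were up and 53 were down in CabZ KO oocytes. A gene is called up or down where its fold change exceeded 2 and limma, on log2(FPKM + 1), gave an adjusted p (Benjamini-Hochberg) below 0.05. That is 2.07% of the tested genes up and 0.836% down. The median log2 fold change was 1.30 over the genes up and -1.20 over the genes down, against -0.02 over all genes tested, and 9 genes up and 1 down exceeded a fold of 4. The 4 CabZ KO values lay wholly apart from the 4 CabZ Het values for 127 of the genes up and 52 of those down, while this was true of 20.6% of all genes tested. The calls were made from these same values, so the separation is largely built in and adds no support to them. With each of the 8 libraries left out in turn, 92 of the genes up and 35 of those down were called every time. With CabZ KO replicates 3 and 4 alone against the controls 163 genes were up and 82 down, and with CabZ KO replicates 1 and 2 alone 127 were up and 61 down, settings added after the split had been seen.

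**Figure D1:**
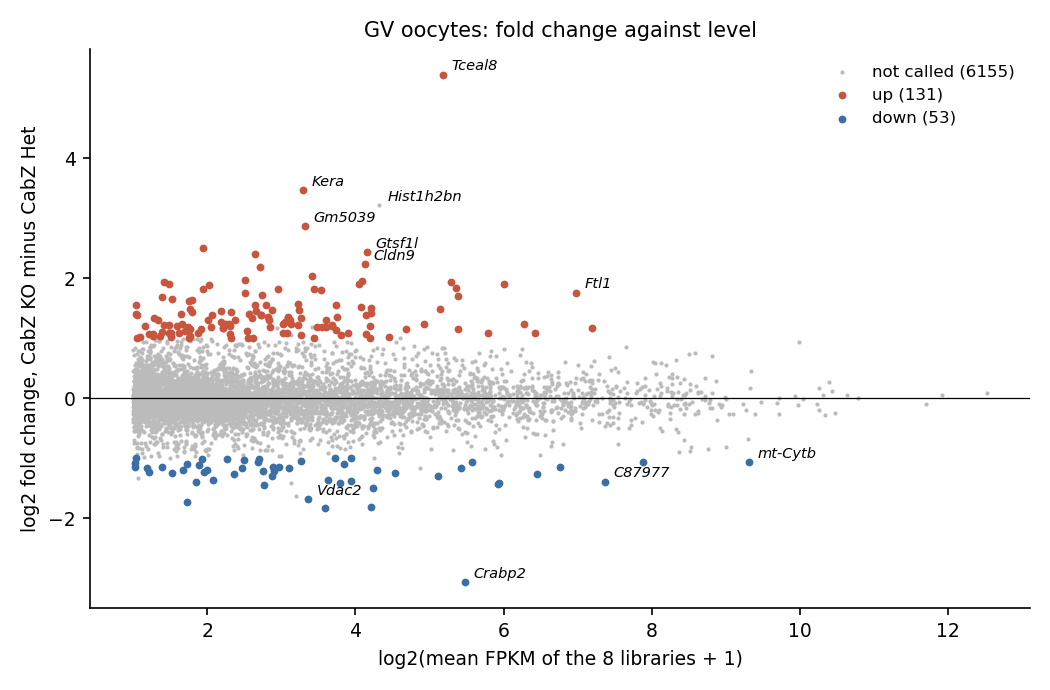
Log2 fold change (CabZ KO minus CabZ Het, on log2(FPKM + 1)) against the mean level of each of the 6339 genes tested, with 131 genes up in red, 53 down in blue and the rest in grey. Tceal8 stands alone at the top at 5.39 and Crabp2 at the bottom at -3.07, and few genes at high levels were called.

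The largest increase was that of Tceal8 (chrX:136168984-136172342), an X-linked gene of the transcription elongation factor A-like family. Its level was 0.501, 0.268, 0.537 and 1.06 FPKM in CabZ Het and 69.2, 60.1, 114 and 36.6 FPKM in CabZ KO libraries. The lowest CabZ KO library was thus far above the highest control, and the means differed 119-fold (log2 fold change 5.39, SE 0.29, limma, adjusted p = 1.1e-05). Its relative Tceal9, also on the X chromosome, rose from 0.525-1.59 FPKM to 2.93-4.70 FPKM (log2 fold change 1.19). These were the only tested genes of the 5 Tceal and Bex genes in the table.

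Some genes up encode products known from surface epithelia, hair or connective tissue. Kera (chr10:97606879-97613692) encodes keratocan, a proteoglycan of the cornea. It had 0.412, 0.529, 0.648 and 0.836 FPKM in CabZ Het and 11.3, 17.0, 19.8 and 20.1 FPKM in CabZ KO libraries, with no overlap and a log2 fold change of 3.47 (SE 0.17, limma, adjusted p = 1.1e-05). Krt73 and Krt71, which encode keratins of the inner root sheath of the hair, rose by 2.18 and 1.40 on the log2 scale. Krt73 had 0.772, 0.787, 2.04 and 1.86 FPKM in CabZ Het and 12.4, 12.2, 6.94 and 7.34 FPKM in CabZ KO libraries, so that CabZ KO replicates 1 and 2 were the highest. Krt32, a keratin gene of the hair shaft, was at 0.0122-0.0886 FPKM in the controls and at 1.59-6.37 FPKM in CabZ KO libraries (log2 fold change 1.93). Krtap4-6, for a protein that embeds hair keratins, rose by 1.49. Of 30 keratin genes in the table, 11 were tested and these 3 were up, where 2.07% of all genes tested were. Krt32 and Krt71 had CabZ Het means of 0.0476 and 0.718 FPKM. They passed the minimum for testing through their CabZ KO values, which raises that share. The median of the 11 was 0.12. Cldn9, for a claudin of tight junctions, had 4.06, 5.74, 5.75 and 4.53 FPKM and then 29.3, 36.6, 20.0 and 25.8 FPKM (log2 fold change 2.24, SE 0.18, limma, adjusted p = 6.8e-05). Serpinb3a, a protease inhibitor gene of squamous epithelium, rose by 1.82, from 3.36-4.25 FPKM to 15.1-17.1 FPKM, the tightest increase of this group (SE 0.10). The keratin and claudin families were grouped after the calls had been seen.

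A further group of genes up, of the ferritin, metallothionein and hepcidin families, was put together after the calls had been seen. Of 3 tested loci named for ferritin 2 were up, and of 2 tested metallothionein genes 1 was, where 2.07% of all genes tested were. Ftl1 (chr7:45457944-45459884), for the light chain of the iron store ferritin, led this group. It had 58.0, 64.6, 52.0 and 51.1 FPKM in CabZ Het and 194, 171, 212 and 197 FPKM in CabZ KO libraries, with no overlap (log2 fold change 1.76, SE 0.11, limma, adjusted p = 2.6e-05). Ftl1-ps1, which is 99.6% identical to Ftl1 where they align, and Gm15590, another copy, rose by 1.70 and 1.38, and reads of these 3 loci may be shared. Fth1, for the heavy chain, had 72.5-83.1 FPKM in CabZ Het and 70.1-112 FPKM in CabZ KO libraries (log2 fold change 0.14, limma, adjusted p = 0.60). Mt4, a metallothionein gene of stratified epithelium, rose from 1.01-2.09 FPKM to 6.10-11 FPKM (log2 fold change 1.76). The abundant Mt1 was at 452-605 FPKM and 610.2-924 FPKM (log2 fold change 0.46, limma, adjusted p = 0.080). Hamp2, of the hepcidin family, rose by 1.62, from 0.312-0.936 FPKM to 3.18-5.51 FPKM. Its relative Hamp, 93.3% identical where they align, had a log2 difference of 0.25 and was not called.

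Single genes of transport, lipid handling and signalling were also up. Of 45 solute carrier genes tested 2 were up, with a median of -0.07, and of 18 genes of sterol and fatty acid metabolism none was called. Among all genes tested 2.07% were up and 2.90% were called in either direction. Slc23a3, of the ascorbate transporter family, had 3.61, 5.52, 3.50 and 4.0 FPKM in CabZ Het and 11.8, 20.7, 17.7 and 18.3 FPKM in CabZ KO libraries (log2 fold change 1.80). Slc4a3, an anion exchanger gene, and Kcnj13, a potassium channel gene, each rose by 1.39. Chst7 on the X chromosome, for a sulfotransferase of proteoglycan chains, rose by 2.04, with 2.46-3.75 FPKM in CabZ Het and 13-19.4 FPKM in CabZ KO libraries. Acsl3, which activates long-chain fatty acids, went from 4.31-4.71 FPKM to 11.5-14.9 FPKM (log2 fold change 1.34, SE 0.10), and Stard4, which carries cholesterol between membranes, rose by 1.19. Pla2g4f, for a phospholipase, rose by 1.91. Efna1, an ephrin ligand gene, rose by 1.51, and its lowest CabZ KO library had 18.0 FPKM against 11 FPKM in the highest control. Srpk3, a muscle kinase gene that MEF2 is known to drive, was at 0.0355-0.299 FPKM in CabZ Het and at 1.41-6.41 FPKM in CabZ KO libraries (log2 fold change 1.69, SE 0.30, limma, adjusted p = 0.0049). Hsd17b10, which encodes a mitochondrial dehydrogenase that is also part of mitochondrial RNase P, rose by 1.30, from 5.12-8.09 FPKM to 13.2-19.4 FPKM. Tuba1a, an alpha-tubulin gene, rose from 0.153-0.663 FPKM to 2.16-5.31 FPKM (log2 fold change 1.66), whereas its close copy Tuba1b had a log2 difference of 0.46 (limma, adjusted p = 0.24).

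Some of the genes up act in germ cells or in chromatin. Gtsf1l, a relative of the piRNA pathway gene Gtsf1, had 5.66, 3.84, 3.40 and 5.11 FPKM in CabZ Het and 19.3, 25.3, 34.5 and 38.2 FPKM in CabZ KO libraries (log2 fold change 2.44, SE 0.22, limma, adjusted p = 1.5e-04). It was the only gene called among the 12 tested genes of the small RNA machinery. Among the 2-cell-stage genes, which are normally switched on when the embryonic genome awakens, 10 of 36 were tested. Of these, 3 were up and 1 was down, where 2.07% and 0.836% of all genes tested were. Their median was 0.80 against -0.02 over all genes. Gm5039 rose from 1.19-1.94 FPKM to 13.1-20.5 FPKM (log2 fold change 2.87, SE 0.15), and Gm21818, 95.7% identical to Tcstv1, rose from 13.4-15.9 FPKM to 43.6-70.8 FPKM (log2 fold change 1.93). Tcstv1 and Tcstv3 were higher by 0.62 and 0.66 (limma, adjusted p = 0.015 and 0.0055), below a fold of 2. Hist1h1c, for a linker histone, rose by 1.22, from 0.419-0.771 FPKM to 2.07-3.91 FPKM. H2afz, for H2A.Z, rose by 1.15, from 10.1-21.3 FPKM to 26.8-40.6 FPKM. The call of H2afz rested on CabZ Het replicate 3, without which its log2 fold change was 0.99 (limma, adjusted p = 0.030). Over the 40 histone genes tested, 2 were up and 1 down, beside the same 2.07% and 0.836% of all genes tested, and the median was 0.06.

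Hist1h2bn, a histone H2B gene, was not called and is named because of how its values split. It had 0, 0, 0 and 0.257 FPKM in CabZ Het and 0, 0.60, 79.3 and 71.6 FPKM in CabZ KO replicates 1 to 4 (log2 fold change 3.21, SE 1.34, limma, adjusted p = 0.15). CabZ KO replicates 3 and 4 were high and every other library was at or near 0. The second component split the CabZ KO libraries in the same way, but Hist1h2bn is among the genes it was computed from.

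Zscan4-ps1 and Zscan4d moved in opposite directions within 1 gene cluster. Zscan4d rose to 7.73-18.2 FPKM from 2.78-4.55 FPKM (log2 fold change 1.33), and Zscan4-ps1 fell to 4.87-19 FPKM from 23.0-27.3 FPKM (log2 fold change -1.49, SE 0.31, limma, adjusted p = 0.012). CabZ KO replicate 1 was the highest CabZ KO library for both. Zscan4d is 97.1% and Zscan4-ps1 96.2% identical to Zscan4c, so reads may be split between members of the cluster. Zscan4c was higher by 1.44 on the log2 scale but was not called. By reads scaled to the library total alone (CPM), not divided by length, Zscan4c was called up (log2 fold change 1.76, limma, adjusted p = 0.047).

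**Figure D2:**
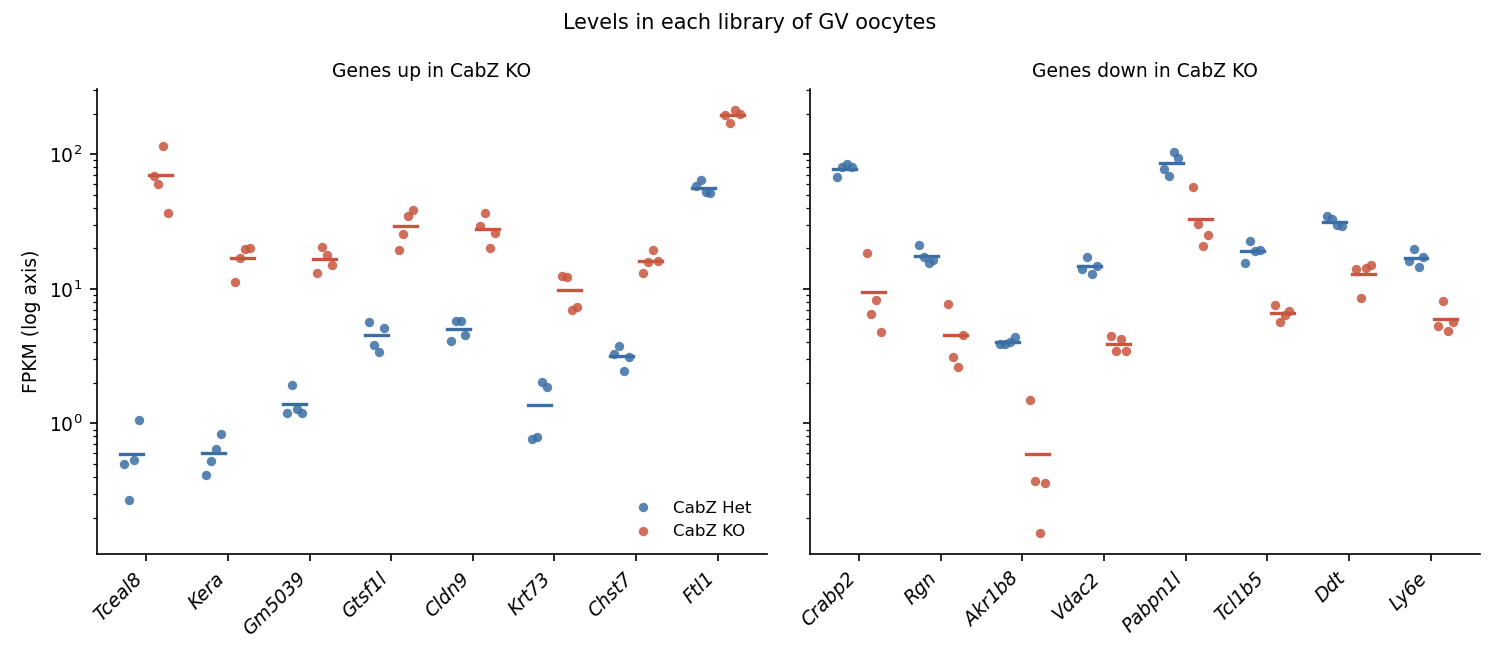
FPKM of 8 genes up and 8 genes down in CabZ KO oocytes, on a log axis, with a point for each library (4 CabZ Het in blue, 4 CabZ KO in red) and a bar at the group mean. The groups do not overlap for any of the 16 genes, and Crabp2 falls from 67.8-84.0 FPKM to 4.75-18.3 FPKM.

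The letters of a TATA box stood before the start of more genes up than of tested genes as a whole. RefSeq start sites were matched by symbol for 62 of the 131 genes up, 20 of the 53 down and 3886 of the 6339 tested. In a window from 45 to 16 bases before the start, on the strand of the gene, 9 of the 62 promoters of genes up (14.5%) held TATAAA or TATATA. Krt32 and Srpk3 among them reached the 1 FPKM minimum through the CabZ KO libraries alone. Krt71, Krtap4-6 and Gm13491 had CabZ Het means of 0.718, 0.827 and 0.990 FPKM and also passed through their CabZ KO values. The share is therefore only a description of the genes that passed. The share was 2.62% over the tested genes with a matched promoter (102 of 3886) and 3.56% over 27025 genes in RefSeq. None of the 20 promoters of genes down held it. The genes were Krt73, Krt32, Gm13491, Mt4, Srpk3, Krtap4-6, Krt71, Kcnj13 and Gm31579, which include all keratin genes up and the keratin-associated gene. The RefSeq starts of Gm13491 and Gm31579 lie 6085 and 3364 bases from those of the table, and Gm13491 lost its call without CabZ Het replicate 1, 2 or 3 or CabZ KO replicate 4 (log2 fold change 1.66, 1.66, 1.82 and 1.68, limma, adjusted p = 0.065, 0.063, 0.055 and 0.060).

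The 60 bases before the RefSeq start of the other 7 genes are shown, from RefSeq on GRCm38.p6 and on the strand of the gene, to let the position of these letters be compared. Capitals mark the matched letters.
Krt73 (chr15:101802361-101802420, minus strand): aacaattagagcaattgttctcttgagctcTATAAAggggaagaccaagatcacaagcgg
Krt71 (chr15:101743098-101743157, minus strand): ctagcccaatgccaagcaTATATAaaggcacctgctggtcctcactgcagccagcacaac
Krt32 (chr11:100088270-100088329, minus strand): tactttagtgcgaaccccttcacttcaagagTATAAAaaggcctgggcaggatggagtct
Krtap4-6 (chr11:99665961-99666020, minus strand): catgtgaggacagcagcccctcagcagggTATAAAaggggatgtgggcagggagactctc
Mt4 (chr8:94137144-94137203, plus strand): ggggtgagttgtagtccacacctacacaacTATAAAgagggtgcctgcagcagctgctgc
Srpk3 (chrX:73774345-73774404, plus strand): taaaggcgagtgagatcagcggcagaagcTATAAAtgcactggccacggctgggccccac
Kcnj13 (chr1:87394730-87394789, minus strand): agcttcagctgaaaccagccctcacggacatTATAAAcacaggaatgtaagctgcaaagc

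In 6 of these 7 promoters the letters began 29 to 31 bases before the start, and in Krt71 they began 42 bases before it. Over 250 bases before to 50 after the start, and on either strand, the GC-box letters GGGCGG were found in 33.9% of the promoters of genes up, 60.0% of those down and 63.6% of those tested, and in 38.2% of all genes in RefSeq. The median GC content was 50.8%, 57.0% and 59.3%, in the same order, and 52.8% over all genes. On both measures the genes up lay nearer to all genes in RefSeq than to the genes tested. CCAAT was found in 31 of the 62, 8 of the 20 and 45.4% of those tested, and CACGTG in 8.06%, 15.0% and 11.8%, in the same order, against 41.1% (CCAAT) and 8.09% (CACGTG) over all genes. The MEF2 consensus was found in 4 of the 62 promoters of genes up (6.45%), in none of the 20 of genes down, in 1.96% of those tested and in 3.70% of all. A match is a description of the letters and not of a bound site.

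Peak lists of ATAC-seq, which marks open chromatin, were available for 3 libraries of each genotype, made from about 100 oocytes each. No peak lay within 500 bases of the start in any of the 6 libraries for 75 of the 131 genes up (57.3%), 39.6% of the genes down and 41.3% of those tested. Among protein-coding genes the shares were 48.5%, 37.8% and 31.6%. Per the methods, mitochondrial alignments were left out of the ATAC-seq. The 5 mitochondrial genes among those down thus could not have a peak, which raises both shares of the genes down. Tceal8, Kera, Gtsf1l, Serpinb3a, Ftl1 and Zscan4d had no such peak in any library, nor had Crabp2, Akr1b8, Ly6e and Ddt among the genes down. Pabpn1l had a peak in 3 CabZ Het and 0 CabZ KO libraries, and Acsl3 in 2 and 0. The libraries held 43399, 67074 and 111327 peaks in CabZ Het and 46070, 19160 and 29600 in CabZ KO, so absence from a list may reflect its size, and no test was made. Only unique alignments were kept, so loci with near-identical copies, such as Ftl1 and Zscan4d, may lack a peak for that reason too.

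Among the genes down, Crabp2 (chr3:87948666-87953376) changed most. It encodes the protein that carries retinoic acid to its nuclear receptor. Its level was 67.8, 79.7, 84.0 and 80.3 FPKM in CabZ Het and 18.3, 6.53, 8.30 and 4.75 FPKM in CabZ KO libraries, highest among the latter in replicate 1 (log2 fold change -3.07, SE 0.31, limma, adjusted p = 3.0e-04). It was the only one of the 7 tested genes of retinoid handling that passed at a fold of 2, and their median was 0.06.

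Vdac2, for a channel of the mitochondrial outer membrane, had 14.1, 17.3, 12.8 and 14.8 FPKM in CabZ Het and 4.49, 3.43, 4.23 and 3.44 FPKM in CabZ KO libraries (log2 fold change -1.68, SE 0.12, limma, adjusted p = 5.7e-05). Gm7832, a processed pseudogene 97.0% identical to Vdac2, fell by 1.81, and reads from them cannot be told apart with certainty. Coa6, needed to assemble cytochrome c oxidase, fell by 1.20, from 3.21-5.58 FPKM to 1.13-1.95 FPKM. Rgn on the X chromosome, for regucalcin, fell by 1.83, from 15.6-21.1 FPKM to 2.62-7.77 FPKM. Akr1b8, an aldo-keto reductase gene, had 3.89, 3.86, 4.03 and 4.4 FPKM in CabZ Het and 1.48, 0.372, 0.153 and 0.359 FPKM in CabZ KO libraries (log2 fold change -1.73). In Akr1b8 as in Crabp2 and Rgn, CabZ KO replicate 1 was closest to the controls. Hspb1, for a small heat shock protein, fell by 1.40 together with its near-identical copy Hsp25-ps1, which fell by 1.21. Chmp2a, of the ESCRT machinery that cuts membranes, fell from 54.7-60.7 FPKM to 18.7-31.1 FPKM (log2 fold change -1.16).

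A few genes known from oocytes were among those down. Pabpn1l, for a poly(A)-binding protein that acts in the decay of maternal mRNA, had 77.8, 68.8, 103 and 93.5 FPKM in CabZ Het and 56.6, 30.4, 20.9 and 24.9 FPKM in CabZ KO libraries (log2 fold change -1.43, SE 0.27, limma, adjusted p = 0.0072). It was the only gene called of 34 tested for the storage and decay of maternal mRNA, where 2.90% of all genes tested were called. The median of the 34 was -0.10. By CPM 49 of these genes were tested, and besides Pabpn1l, which was down there too, Ddx6, for an RNA helicase of mRNA storage and decay, was up (log2 fold change 1.12, SE 0.17, limma, adjusted p = 0.0013), from 123-170.0 to 232-302 reads. C87977, a gene of the Prame and oogenesin group, fell from 223-263 FPKM to 77.8-100.3 FPKM (log2 fold change -1.39, SE 0.11). Its copy Oog1, 95.4% identical, had a log2 difference of 0.09. C87977 was not on the list of oogenesin, Prame and Obox genes, of which 22 were tested and none was called, with 3 higher and 2 lower by adjusted p alone and a median of 0.19. Tcl1b5 fell from 15.5-22.8 FPKM to 5.63-7.53 FPKM (log2 fold change -1.41), and its copy Tcl1b3 had a log2 difference of -0.14.

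Genes that interferon induces were split. Of 14 tested, 1 was up and 1 was down at a fold of 2, H2-K1 and Bst2, where 2.07% and 0.836% of all genes tested were. H2-K1, for a class I histocompatibility antigen, rose by 1.08, from 0.376-1.73 FPKM to 2.06-5.30 FPKM, and lost its call without CabZ Het replicate 3 or 4 or CabZ KO replicate 2 (0.92, 1.04 and 0.86, limma, adjusted p = 0.051, 0.052 and 0.035). By adjusted p alone 6 were lower and 3 higher, where 5.73% and 8.20% of all genes were lower and higher, and the median was -0.19. Bst2, which tethers viruses to the cell surface, fell by 1.02, from 3.07-6.21 FPKM to 1.09-1.73 FPKM, and was below a fold of 2 without CabZ Het replicate 1 (-0.84) or CabZ KO replicate 1 (-0.94). Ifitm3, which blocks viral entry, was at 68.0-95.9 FPKM in CabZ Het and 37.2-48.5 FPKM in CabZ KO libraries (log2 fold change -0.95, limma, adjusted p = 0.0018). The RNA sensor gene Ddx58 had 1.25-1.71 FPKM and 0.489-0.620 FPKM (-0.70, limma, adjusted p = 0.0017). Ly6e, which interferon also induces but which was not on the list, fell from 14.6-19.7 FPKM to 4.88-8.13 FPKM (log2 fold change -1.37, SE 0.15, limma, adjusted p = 4.6e-04).

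Transcripts of the mitochondrial genome were lower in CabZ KO oocytes. Their share of all gene reads was 0.391, 0.404, 0.474 and 0.468% in CabZ Het and 0.263, 0.187, 0.258 and 0.342% in CabZ KO libraries, without overlap. The mean went from 0.434% to 0.262%, a fall of 39.6% (p = 0.029 by the same exact permutation test, again the lowest it can give). Without CabZ Het replicate 2, 3 or 4 the fall was 41.0, 37.7 and 38.1%, each with an exact permutation p of 0.057. The change lay in the mRNAs, whose share went from 0.357 ± 0.0556% (SD, n = 4) to 0.193 ± 0.0572% (SD, n = 4) with the same exact permutation p of 0.029. The share of the 2 ribosomal RNAs was 0.0768 ± 0.0134% (SD, n = 4) and 0.0692 ± 0.00904% (SD, n = 4) (exact permutation test, p = 0.37). The kit primes on poly(A) tails, which mitochondrial mRNAs and rRNAs carry to different extents, so the shares are not those of total RNA.

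All 13 mitochondrial mRNAs were tested, and they encode subunits of complexes I, III and IV and of ATP synthase. Of these, 5 were down at a fold of 2 and 9 were lower by adjusted p alone, where 0.836% and 5.73% of all genes tested were. The median of the 13 was -0.95. Among complex I genes, mt-Nd5 had 62.3, 74.8, 108 and 104 FPKM in CabZ Het and 31.7, 20.9, 29.6 and 48.7 FPKM in CabZ KO libraries (log2 fold change -1.42, SE 0.25, limma, adjusted p = 0.0056), and mt-Nd4 fell by 1.27 (adjusted p = 0.0024 from limma). mt-Nd2 and mt-Nd1 fell by 1.14 and 1.06. The complex III gene mt-Cytb, the most abundant, fell from 696-978 FPKM to 237-621 FPKM (log2 fold change -1.06). Without CabZ KO replicate 2, which had the lowest share, mt-Cytb, mt-Nd1 and mt-Nd2 were at -0.81, -0.90 and -0.96 and so below a fold of 2. The call of mt-Nd1 was also lost without CabZ Het replicate 3 (-0.95), and that of mt-Cytb without CabZ Het replicate 3 or 4 (adjusted p = 0.059 from limma in both). The complex IV genes mt-Co1 and mt-Co3 were at -0.82 and -0.88 and the ATP synthase genes mt-Atp6 and mt-Atp8 at -0.81 and -0.95, each with an adjusted p from limma between 0.012 and 0.042. mt-Co2 (-0.35), mt-Nd3 (-0.51), mt-Nd4l (-0.87) and mt-Nd6 (-1.17) had adjusted p-values of 0.37, 0.54, 0.44 and 0.055 from limma, and their groups overlapped. The rRNAs mt-Rnr1 and mt-Rnr2 had log2 differences of 0.22 and -0.21 (adjusted p = 0.41 and 0.45 from limma).

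**Figure D3:**
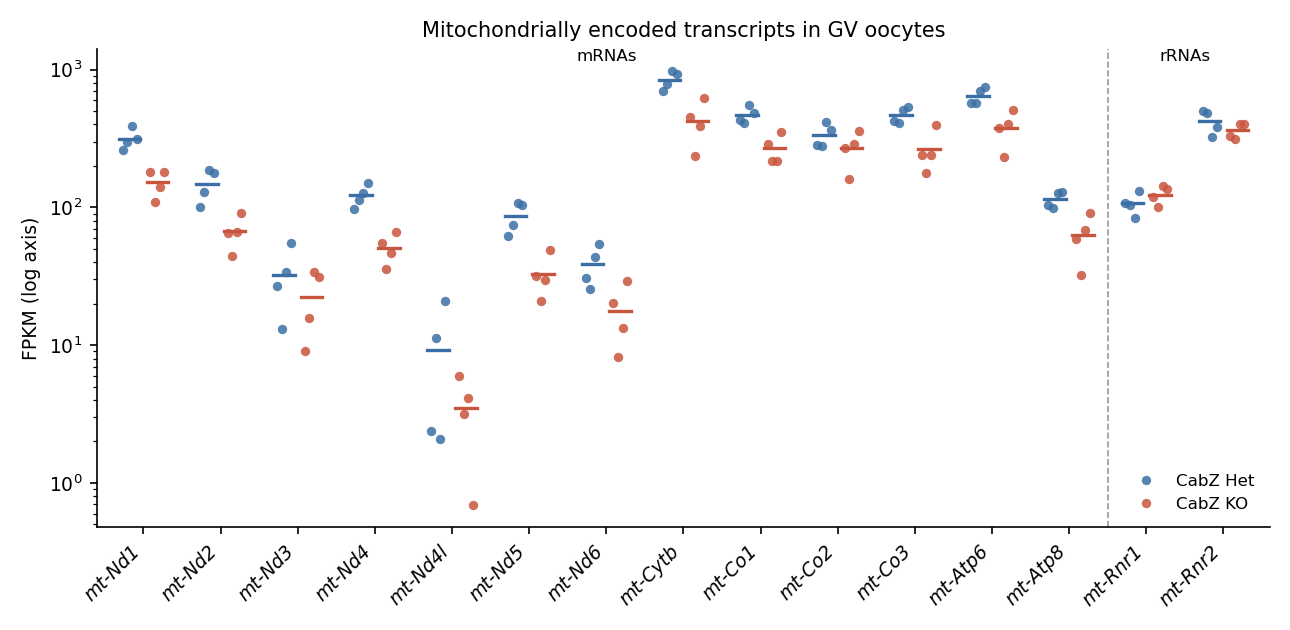
FPKM of the 13 mitochondrial mRNAs and 2 rRNAs on a log axis, with a point for each library (4 CabZ Het in blue, 4 CabZ KO in red) and a bar at the group mean. For 9 mRNAs every CabZ KO point lies below every CabZ Het point, while the points of both rRNAs overlap. The groups do not overlap, in either direction, for 20.6% of all genes tested.

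Among the listed genes of the respiratory chain that the nuclear genome encodes, 81 were tested and none was called, by FPKM or by CPM. By FPKM 2.90% of all genes tested were called. By adjusted p alone 3 were lower and 1 higher, where 5.73% and 8.20% of all genes were, and the median was -0.13. Cox4i2, for a subunit of cytochrome c oxidase, was not on the list and lay under the FPKM minimum. It rose by CPM (log2 fold change 2.58, SE 0.28, limma, adjusted p = 1.4e-04), from 13-42 to 106-219 reads. The 71 tested genes of mitochondrial ribosomal proteins had a median of -0.05 with none called, and the 27 tested genes of mitochondrial RNA handling and import had a median of -0.09 with none called. Some loci in the nuclear genome that resemble mitochondrial DNA were lower too. Gm28439, identical to mt-Nd4 where they align, had a log2 difference of -0.77 and was not called. Gm10222, identical to mt-Nd4l where they align, fell by 1.38, and Gm13339, 96.7% identical to mt-Nd2, fell by 1.03 and was below a fold of 2 without CabZ Het replicate 2 or 4 or CabZ KO replicate 3 (-0.98, -0.95 and -0.92). The mitochondrial gene mt-Nd4l itself was at -0.87 and not called. Reads of such loci and of mitochondrial RNA may be mixed.

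The partners of CABIN1 were measured next. Of 24 genes of the Hira complex, H3.3 and its chaperones, 20 were tested and none was called at a fold of 2, where 2.90% of all genes tested were. Their median was 0.10. Hira itself was at 0.00188-0.0181 FPKM in CabZ Het and 0.00231-0.0117 FPKM in CabZ KO libraries, below the minimum for testing. Ubn1 had 0.950 ± 0.104 FPKM (SD, n = 4) and 1.06 ± 0.382 FPKM (SD, n = 4), and Asf1a, which hands H3.3 to HIRA, had 45.4 ± 7.05 FPKM (SD, n = 4) and 56.7 ± 5.62 FPKM (SD, n = 4) (log2 fold change 0.32, limma, adjusted p = 0.13). By adjusted p alone 3 of the 20 were higher, where 8.20% of all genes were. The H3.3 gene H3f3b had 350.4, 289, 371 and 357 FPKM in CabZ Het and 558, 507, 576 and 575 FPKM in CabZ KO libraries, with no overlap (log2 fold change 0.70, SE 0.11, limma, adjusted p = 0.0028). The other H3.3 gene, H3f3a, had 70.1, 70.3, 62.6 and 61.6 FPKM in CabZ Het and 54.0, 57.8, 74.3 and 68.9 FPKM in CabZ KO libraries (log2 fold change -0.06, limma, adjusted p = 0.80). Daxx, of the other H3.3 chaperone, was higher by 0.77 (SE 0.16, limma, adjusted p = 0.012) and Nasp, a histone H3 carrier, by 0.65 (SE 0.18, limma, adjusted p = 0.040). Daxx had 1.39-1.86 FPKM in CabZ Het and 2.75-5.47 FPKM in CabZ KO libraries.

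Most lists of genes from oocyte biology held no called gene. Of the 43 gene lists with at least 5 genes tested, 29 had no gene called, and the medians of these 29 lay between -0.33 and 0.19. As 2.90% of all genes tested were called, lists of these sizes would hold few or none at that share. An empty list therefore does not show that its genes were spared. No gene was called among 14 for the zona pellucida and secreted egg proteins (median -0.30), 19 for oocyte growth factors and transcription factors (-0.10), 20 for the subcortical maternal complex (-0.16), 42 for meiotic arrest and the spindle (-0.06) and 11 for DNA methylation and imprints (-0.01). Zp3 had 393-769 FPKM in CabZ Het and 361-579.5 FPKM in CabZ KO libraries, and Gdf9, the growth factor that oocytes send to cumulus cells, had 316-440.0 FPKM and 238-455 FPKM, both with overlap. Dppa3, a maternal factor that guards DNA methylation, had 901-1137 FPKM and 898-1155 FPKM. The 84 cytosolic ribosomal protein genes (median 0.03), 54 translation factor genes (0.02), 58 splicing factor genes (-0.02), 38 proteasome genes (-0.03) and 38 DNA repair genes (0.07) had none called either. In the list of the amino acid and integrated stress response, 14 were tested and Ddit3 alone was called. Ddit3, for the stress factor CHOP, rose from 22.1-28.9 FPKM to 48.1-75.4 FPKM (log2 fold change 1.16). Its gene overlaps Mars on the other strand, and the counting did not use the strand as far as the sources say.

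**Figure D4:**
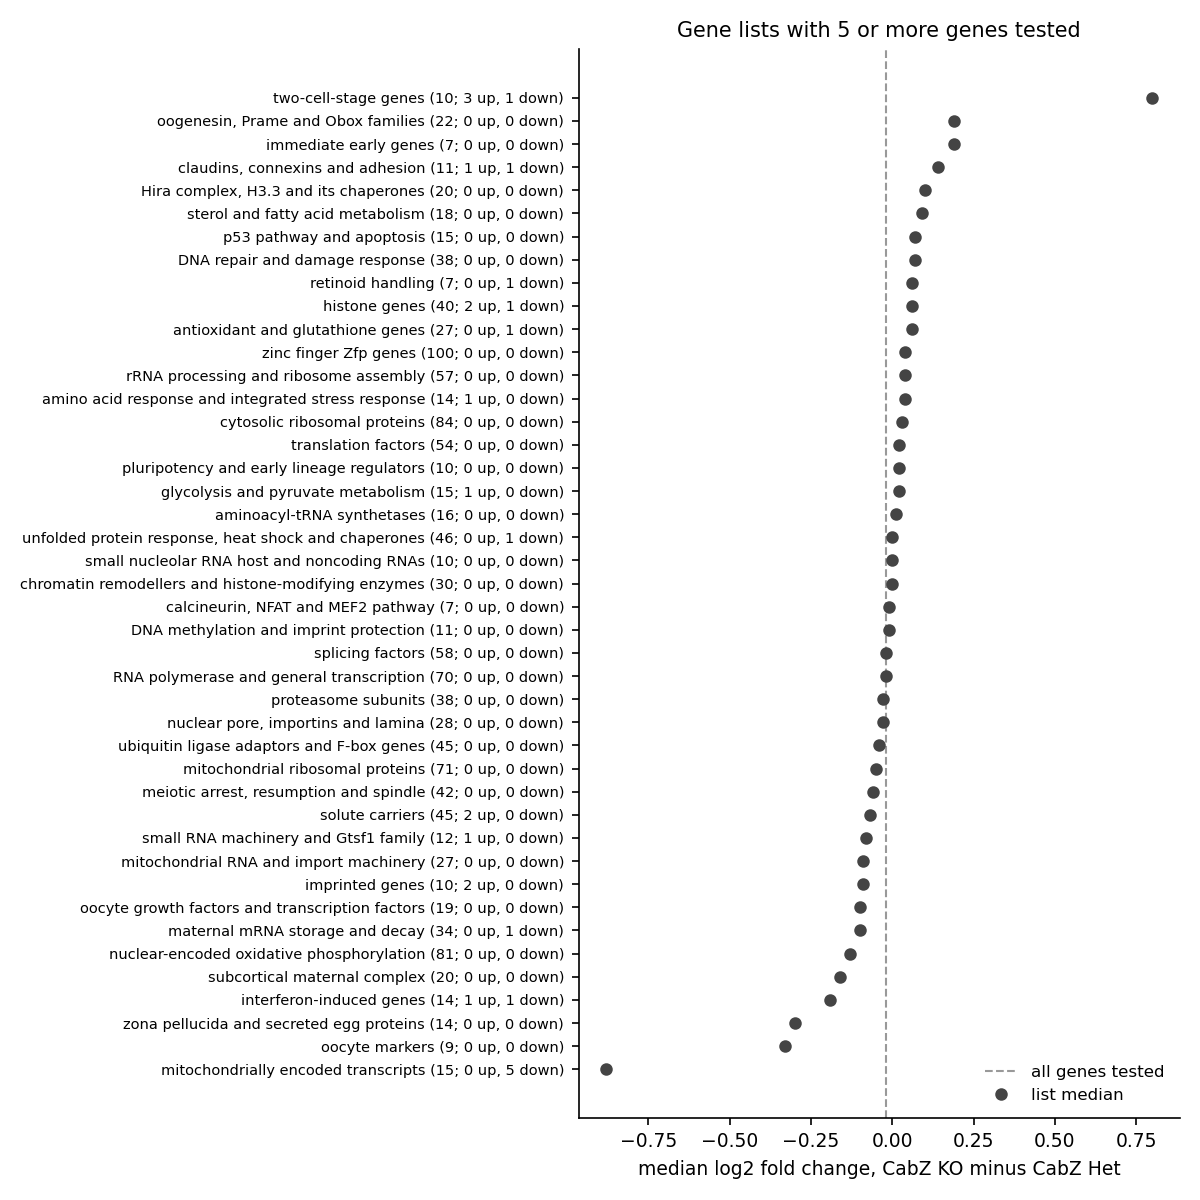
Median log2 fold change of each gene list with 5 or more genes tested, with the number tested and called in brackets and a dashed line at the median of all genes tested, -0.02. The 2-cell-stage genes (0.80) and the mitochondrially encoded transcripts (-0.88) stand apart from the other lists, which lie between -0.33 and 0.19.

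By FPKM, which divides by gene span, the kinds of loci differed between the genes called and the rest. Protein-coding genes made up 73.2% of the genes tested, 51.9% of those up and 69.8% of those down. Of 4639 tested, 1.47% were up and 0.798% down. Processed pseudogenes, copies of mRNAs pasted into the genome, were up in 3.52% and down in 0.570% of 1052. Long intergenic RNAs were up in 3.83% of 235, and loci awaiting a biotype (TEC) in 8.82% of 68, with none of the latter down. The genes up had a median span of 1835 bases and those down of 3202, against 8059 over all tested. Pseudogenes of all kinds made up 32.8% of the genes up and 18.9% of those tested. By CPM, not divided by length, these contrasts were much smaller. Pseudogenes were then 7.21% of the genes up and 6.38% of those tested, with median spans of 21037 and 23603 bases. Protein-coding genes were 78.7% and 87.7% by CPM, in the same order. The X chromosome held 15 of the genes up and 4 of those down, which is 7.79% of its 244 tested genes, while 1.01 to 4.21% of the genes of each autosome were called.

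Many called loci have copies, which limits what their values mean. Of 129 genes up with a transcript in GENCODE, 59 had another gene with at least 90% identity over at least 50% of their length, and for 40 of them such a copy was tested as well. In 16 of these 40 the copy was called in the same direction, and in the others it was not. For instance Gapdh, whose product acts in glycolysis, rose by 1.04 together with its copy Gm7336 (1.23), and its call rested on CabZ KO replicate 2, without which it was at 0.93. Rangrf rose by 1.36 with its copies Gm10355 (1.46) and Gm4535 (1.20). In contrast Xlr3c rose by 1.91 while Xlr3a, 98.5% identical, had a log2 difference of 0.17. Of the called genes, 60 overlap another annotated gene. Zrsr1, an imprinted splicing factor gene that lies within Commd1 on the other strand, was at 0-0.0803 FPKM in CabZ Het and at 1.75-2.32 FPKM in CabZ KO libraries (log2 fold change 1.56, SE 0.10, limma, adjusted p = 2.1e-05). Zrsr1 is 1 of 8 called genes that were under 0.5 FPKM in every library of a group and so passed the minimum for testing through the other group alone. The others were Gm14868, Gm45007, Krt32, Pla2g4f, Slc4a3 and Srpk3, near 0 in CabZ Het, and Gm30564, near 0 in CabZ KO. More called genes had a group mean under 1 FPKM and so also passed through the other group. Tceal8, Kera, Tuba1a and Hamp2, for instance, had CabZ Het means of 0.591, 0.606, 0.356 and 0.650 FPKM. Akr1b8 had a CabZ KO mean of 0.590 FPKM.

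Long genes are nearly absent from these counts, since a level per whole gene span is low where introns are long. Reads scaled to the library total alone (CPM), not divided by length, were therefore tested for the 9523 genes whose mean reached 5 CPM, and 319 (3.35%) were up and 158 (1.66%) down. Of these, 243 had been under the FPKM minimum, 160 up and 83 down, with median spans of 46480 and 50539 bases. The genes named from here on were picked after their values were seen. Among those up, Fshr, Aoc1, Ifi213, Slc14a2, Gls2, Nfatc1, Camk4 and Fasn had CabZ Het means under 5 CPM. They passed the minimum through their CabZ KO libraries, so their being tested is not independent of their rise.

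Fshr (chr17:88985170-89200612), for the receptor of follicle stimulating hormone, was the largest of these increases. It had 7.0, 13.6, 9.44 and 12.2 reads in CabZ Het and 279, 369, 439.5 and 455 reads in CabZ KO libraries, with no overlap (log2 fold change of CPM 4.41, SE 0.20, limma, adjusted p = 6.6e-07). The receptor is known from granulosa cells, so other genes of these cells are set beside it. Of 22 granulosa and cumulus cell markers 11 are in the table, and 5 of these were tested by CPM and Fshr was the only one called. The aromatase gene Cyp19a1 had 407-552 reads in CabZ Het and 504-632 in CabZ KO libraries, Serpine2 had 3862-5136 and 2418-3535 reads, and Inha, for the inhibin subunit, had 5.00-22.0 and 0-12.0 reads. Kitl, with 30.1-53.1 and 39.0-93.0 reads, was higher by 0.82 by CPM (SE 0.24, limma, adjusted p = 0.042), below a fold of 2. By CPM Cyp19a1, Nr5a2 and Serpine2 had log2 differences of 0.43, 0.23 and -0.48 (limma, adjusted p = 0.084, 0.39 and 0.058). Has2 and Star, both of cumulus or steroid-making cells, had at most 4.01 and 20.0 reads in any library. Summed over the list, the level was 424 to 537 CPM in CabZ Het and 375 to 453 CPM in CabZ KO libraries. In such pools of whole oocytes, fewer cells of a type and less RNA per cell cannot be told apart.

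Other long genes that rose act in metabolism, immunity and signalling. Aoc1, for an enzyme that degrades histamine, went from 9.99-17.0 to 127-427 reads (log2 fold change of CPM 3.66). Gls2, which turns glutamine into glutamate, and the urea transporter gene Slc14a2 rose by 2.91 and 3.08. Ifi213, of an interferon-induced family, rose by 3.14, from 3.01-7.99 to 96.0-126 reads. In the list of calcineurin, NFAT and MEF2 genes, 16 were tested by CPM and 2 were up, where 3.35% of all genes were. The median of this list was -0.07. Nfatc1, a transcription factor gene that calcineurin activates and that also drives itself, had 39.0, 92.9, 23.9 and 52.0 reads in CabZ Het and 211, 635, 277 and 353 reads in CabZ KO libraries (log2 fold change of CPM 2.83, SE 0.37, limma, adjusted p = 5.0e-04). Camk4, for a calcium-dependent kinase, rose by 1.07, and was at 0.96 without CabZ Het replicate 2 and 0.97 without CabZ KO replicate 2. Of the 7 genes of this list that reach the FPKM minimum, none was called. In the list of sterol and fatty acid metabolism, Srebf2, the master regulator of sterol synthesis, rose by 1.01 and Fasn, for fatty acid synthase, by 1.11. Fasn was at 0.88 without CabZ KO replicate 2. Srebf2 was at 0.92, 0.99, 0.96, 0.91 and 1.00 without CabZ Het replicate 1, 2 or 3 or CabZ KO replicate 3 or 4, each below a fold of 2. Among 188 zinc finger Zfp genes, 10 were up and 1 was down by CPM, where 3.35% and 1.66% of all genes were. The median of these genes was 0.08.

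Among the long genes down were a few for membrane proteins. Of 110 solute carrier genes tested by CPM 7 were up and 2 down, where 3.35% and 1.66% of all genes were. Their median was -0.13, and more were called up than down. Ednrb, for the endothelin receptor B, had 227, 210.0, 155 and 103 reads in CabZ Het and 48, 17.0, 14 and 14 reads in CabZ KO libraries (log2 fold change of CPM -2.30, SE 0.28, limma, adjusted p = 3.4e-04). Slc44a4, of the choline transporter-like family, and Slc15a5, of the peptide transporter family, fell by 2.17 and 1.75. Slc15a5 was the most abundant of these, with 574-1141 reads in CabZ Het and 137-265 in CabZ KO libraries. Nyap2, for an adaptor of phosphoinositide 3-kinase, fell by 2.57. Igf1os, whose reads cannot be told apart from those of Igf1 on the other strand, fell by 2.87. Gpr3, for the receptor that holds oocytes in meiotic arrest, was called down by CPM (log2 fold change -1.59) but not by FPKM (-1.41, limma, adjusted p = 0.065). Its level was 12.9, 23.8, 5.50 and 5.96 FPKM in CabZ Het and 5.53, 4.88, 1.89 and 1.82 FPKM in CabZ KO libraries, so that the groups overlapped. Nfe2l2, for the antioxidant regulator NRF2, fell by 1.03, from 257-343 to 78.0-183 reads, and was at -0.97 without CabZ Het replicate 3 and -0.83 without CabZ KO replicate 3.

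**Figure D5:**
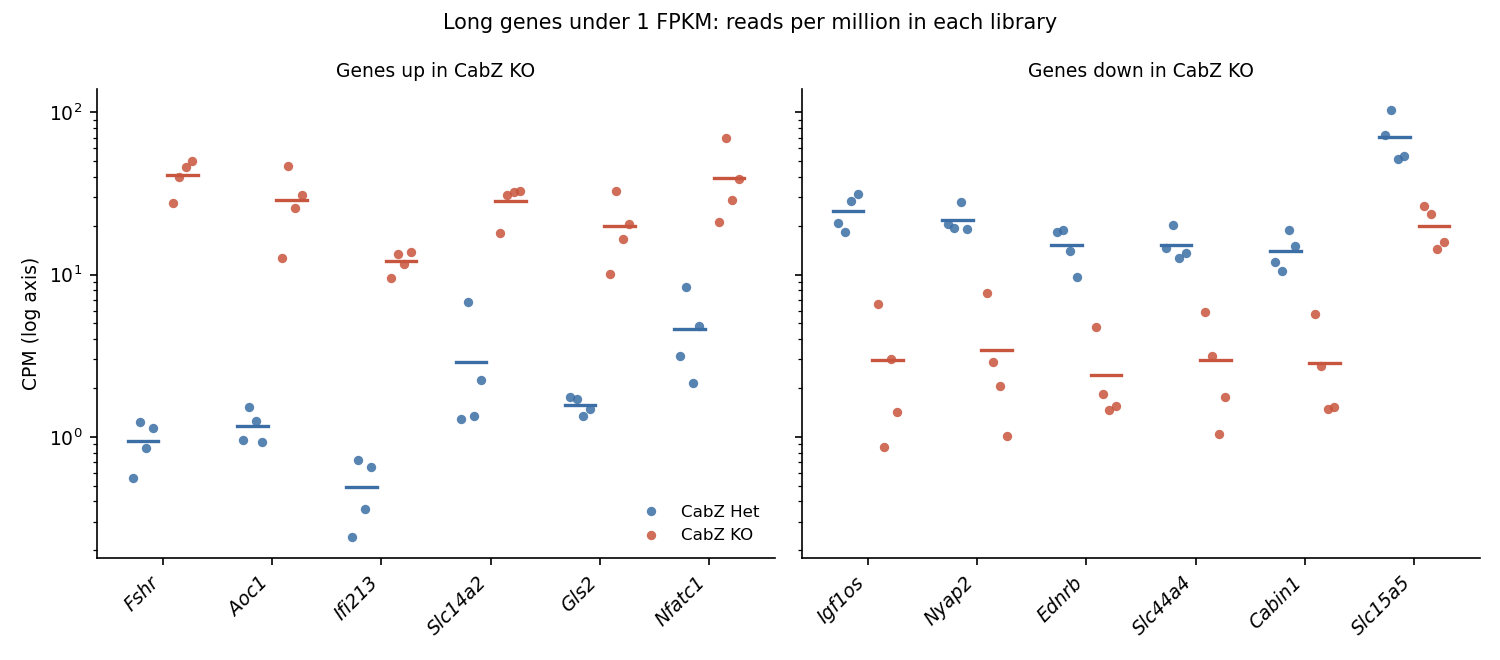
Reads scaled to the library total (CPM) of 6 genes up and 6 genes down that lie under the FPKM minimum, on a log axis, with a point for each library (4 CabZ Het in blue, 4 CabZ KO in red) and a bar at the group mean. No group overlaps with the other, and Cabin1 itself falls by 2.06 on the log2 scale.

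The genes called were then read in libraries that share no sample with these, the 2-cell embryos of the CabZ line and the GV oocytes of the ZH line, in which Hira is deleted by Zp3-Cre. In CabZ 2-cell embryos, where 16.9% of the tested genes were up and 20.4% down, 112 of the 131 genes up in oocytes were tested. Of these, 69 were up in the embryos too and 11 were down, with a median of 1.44 against -0.11 over all genes. Of the 42 tested genes down, 18 were down and 3 up (median -0.54). The shared genes make up 52.7% and 34.0% of the oocyte lists and 5.23% and 1.13% of the embryo lists. Kera was at 0.227 FPKM in CabZ Het and 54.4 FPKM in CabZ KO embryos (means), a log2 fold change of 5.50, larger than in oocytes. Gtsf1l went the other way, from 72.7 to 7.91 FPKM (-3.01), as did Sat1, which acetylates polyamines (up by 1.20 in oocytes, -1.33 in embryos). Crabp2 had a log2 difference of 0.20 in the embryos (limma, adjusted p = 0.68). The mitochondrial mRNAs mt-Nd5 and mt-Cytb were down there by 2.34 and 2.14.

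In ZH GV oocytes, where 10.5% of the tested genes were up and 7.20% down, 117 of the genes up were tested, and 93 were up and 0 down (median 1.92 against -0.04 over all genes). Of 44 tested genes down, 21 were down and 6 up (median -0.93). The shared genes are 71.0% and 39.6% of the CabZ lists and 15.3% and 5.04% of the ZH lists. Ftl1 rose by 3.93 in ZH against 1.76 in CabZ oocytes, and Vdac2 fell by 1.32 against 1.68. Crabp2, the gene that fell most here, had a log2 difference of -0.38 (limma, adjusted p = 0.25) in ZH oocytes, and Rgn was up by 1.15. Ddt was lower by 0.97 in ZH oocytes (adjusted p = 0.0017 from limma) and by 0.98 in CabZ 2-cell embryos (adjusted p = 0.074 from limma), below a fold of 2 in both. Whether the size of a change differs between the lines or stages was not tested. Across the 3 comparisons, 47 genes were up in each, among them Tceal8, Kera, Gm5039, Krt73, Krt32, Chst7, Ftl1 and Mt4, and 6 were down in each, among them Tcl1b5, Gm10222, Cnn1 and Chmp2a.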

How the data were processed

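RNA-seq of CabZ GV oocytes (4 CabZ KO and 4 CabZ Het libraries) was made with SMART-Seq v4 and Nextera XT and sequenced as 150-base pairs. Per the methods and the submitters' processing notes, reads were trimmed with TrimGalore, aligned with STAR (v2.5.3a) to mouse GRCm38 and quantified in Partek Flow, and strand is not stated to have been used. The deposited values for CabZ oocytes and embryos are a score: tested on the table, they fit reads divided by the gene span squared, scaled to the same total in every library, with 0.01 added by the authors. FPKM was restored by subtracting 0.01, multiplying by the span and scaling to the library's reads. Whole reads were then recovered from the lowest values, of which 86.2 to 87.6% lay within 0.1 of a whole read in CabZ GV libraries. The deposited ZH values were used as the authors' FPKM less the 0.01. Peak lists of ATAC-seq were called per library with MACS2 by the authors, and their deposited fold enrichment ratio and −log10 p and q columns were not used beyond the positions.

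Genes whose mean reached 1 FPKM entered limma (v3.58.1, R v4.3.3) on log2(FPKM + 1), a scale that understates changes of low genes, and were called where the fold exceeded 2 and the adjusted p (Benjamini-Hochberg) was below 0.05. Alternatives changed the pseudocount (0.1), the filter, the scaling, the division by length, the variance model, the pairing or the libraries. Values were read with Python v3.11.15, pandas v2.3.3 and numpy v2.4.6, coordinates came from GENCODE M21, which matched 6070 of the 6339 genes tested, and copies were found with BLAST+ v2.17.0. The fit was tested on simulated data. Replicate numbers did not pair the libraries, as described with the alternatives.

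The members and gene lists were chosen with earlier results of these data known. Genes were named by rule: the 15 largest changes in each direction without overlap, up to 4 called members of each list or, with none called, its 2 most abundant, the Hira complex and mitochondrial genes, and the 3 largest changes per biotype and direction. Other genes named, such as copies, neighbours of Cabin1, long genes and promoter matches, were picked after their values were seen, and not every gene that the rule takes is described. 1 result is not reported here.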

Additional observations from a re-analysis of the deposited data

Results flagged for a closer look

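In 12 of 266 groups looked at, 1 library lay far from the other 3 of its group, where chance flags about 5% of groups, or 1 in 20. Among genes that differed between the genotypes, the library standing apart in CabZ KO was replicate 1 for Akr1b8 (1.48 FPKM, the highest), Ednrb (4.79 CPM, the highest) and Olfr915 (6.42 FPKM, the highest). Replicate 1 was also the lowest for Efna1 (18.0 FPKM), Nasp (10.4 FPKM) and Slc14a2 (18.0 CPM). For Ddt it was CabZ KO replicate 2, the lowest at 8.53 FPKM. In CabZ Het the highest library stood apart for Gm5039 (replicate 2, 1.94 FPKM), Gm13491 (replicate 4, 3.58 FPKM), Gm14868 (replicate 3, 0.459 FPKM), Hist1h2bn (replicate 4, 0.257 FPKM) and Nyap2 (replicate 3, 27.9 CPM). CabZ KO replicate 1 also kept the most Cabin1 reads, and the part of this in those values was not tested.

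Gtsf1l, Sat1 and Tuba1a, which rose in CabZ KO oocytes, were lower in every CabZ KO than in every CabZ Het 2-cell embryo library, with log2 fold changes of -3.01, -1.33 and -1.52. The difference between oocytes and embryos was not tested.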

How the results depend on the processing

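The counts of 131 genes up and 53 down depended most on the scale. With the values as deposited, 8 genes were up and 1 down. With the fold taken as the ratio of group means 249 were up and 105 down, without a fold threshold 520 and 363, with a pseudocount of 0.1 227 and 101, and with CPM, not divided by length, 319 and 158. With a minimum of 5 FPKM 73 were up, fewer genes being tested. With CabZ KO replicates 3 and 4 only, a setting chosen after seeing the data, 82 were down. Leaving out each library gave 118 to 148 genes up and 47 to 71 down, and by CPM, also added after seeing the data, 290 to 374 up and 139 to 218 down.

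The replicate numbers did not pair the libraries (correlations of same-numbered deviations 0.01, -0.02, -0.18 and 0.14), and with the number as a block 128 genes were up and 56 down. The fall of Cabin1 ranged from 76.5 to 86.4% and that of the mitochondrial share from 33.8 to 45.7% with a library left out.

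No called gene named here changed direction in any alternative. Of the 75 named genes called by FPKM, 65 were called without each library in turn. With CabZ KO replicates 1 and 2 only, Ddit3 (0.96), Sat1 (0.99), Taar9 (0.98), Gm13339 (-0.94), Gm13491 (1.58) and Zscan4-ps1 (-1.30) lost their calls, and with replicates 3 and 4 only, Bst2 (-0.95), Gapdh (0.84), H2-K1 (0.77), H2afz (1.09), mt-Cytb (-0.76), mt-Nd1 (-0.96) and mt-Nd2 (-0.88) did. Daxx (1.01), Ddx58 (-1.44), Gpr3, Zscan4c (1.76) and mt-Nd6 (-1.12) were not called by FPKM but were by CPM, and each also under at least 1 other alternative. Gpr3 and mt-Nd6 were called with the replicate block. The cause was not tested. Depth limits genes with few reads, such as Cabin1.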

Other observations

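Receptor genes of the nose were among the loci up and belong to no comparison above. Of 182 olfactory, vomeronasal and trace amine receptor genes measured, 29 were tested, 5 were up and none down, with a median of 0.37. The genes called were 17.2% of those tested, against 2.90% of all genes tested. Olfr1174-ps and Taar9 had CabZ Het means of 0.699 and 0.780 FPKM and passed the minimum through their CabZ KO values, which raises that share. The genes up were Olfr1174-ps, Olfr915, Taar9, Vmn1r62 and Vmn2r-ps61, and the call of Taar9 was lost without CabZ KO replicate 4 (log2 fold change 0.99). The family was put together after the calls had been seen. The gene loci known only by a Gm number made up 1345 of the genes tested, of which 59 were up and 12 down. This is 5.28%, against 2.90% of all genes tested, with a median of 0.03.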
